A study of Mus musculus with 7 samples.

Results

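Granulocyte-associated genes were followed in bone-marrow-derived macrophages (BMDMs), which are macrophages grown from mouse marrow with the growth factor M-CSF. The set was chosen by name from results of these same samples, and it holds 10 genes: S100a8, S100a9, Lcn2, Ltf, Camp, Ngp, Mpo, Elane, Mmp8 and Retnlg. All 10 had a row in both expression tables, among 48440 genes in the LPS table and 55352 in the AAV table. All values of the 10 genes below are therefore a description and not a test of the choice. In the LPS experiment, WT BMDMs were left untreated (0 h) or stimulated with 100 ng per mL LPS, a cell wall component of Gram-negative bacteria, for 2 h or 4 h. Each time point is 1 library. In the AAV experiment, BMDMs received adeno-associated virus of serotype AAV1 for 48 h, carrying either GFP (AAV-GFP) or Shisa3 (AAV-Shisa3) behind the CAG promoter, with 2 samples per group and no LPS. CAG is a promoter active in most cell types, so it does not restrict the transgene to macrophages. The labels give all cells as WT apart from the Shisa3 overexpression. They give no age and do not say whether the 2 samples of a group came from separate cultures, so the spread between them may be technical.

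Neutrophils store antimicrobial proteins in granules that are filled in a fixed order as the cells mature in the marrow. Azurophil granules come early and hold myeloperoxidase (Mpo) and neutrophil elastase (Elane). Specific granules come later and hold lactoferrin (Ltf), cathelicidin (Camp), neutrophilic granule protein (Ngp), lipocalin 2 (Lcn2) and the collagenase Mmp8. S100a8 and S100a9 pair in the cytosol as calprotectin, and Retnlg encodes a secreted protein of the resistin family found in mouse neutrophils. Transcription factors of the C/EBP family are known to drive many of these genes, and macrophages are known to induce Lcn2 when they sense LPS.

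The genes are spread over several chromosomes, with one group on chromosome 9. Positions are those of the GENCODE annotation on GRCm38, since the tables carry no coordinates and the submitters' processing notes name another build, mm9. S100a8 (90668978 to 90670035) and S100a9 (90692632 to 90695721) lie 22.6 kb apart on chromosome 3 with 0 protein-coding genes between them. On chromosome 9 lie Mmp8 (7558456 to 7568485), Camp (109847379 to 109849617), Ngp (110419747 to 110423012) and Ltf (111019271 to 111042767). Camp and Ngp are 570.1 kb apart with 8 protein-coding genes between them, and Ngp and Ltf are 596.3 kb apart with 20 between. Lcn2 lies on chromosome 2 (32384633 to 32388252), Elane on chromosome 10 (79886247 to 79888215), Mpo on chromosome 11 (87793581 to 87804413) and Retnlg on chromosome 16 (48872621 to 48874496). Mpo overlaps the gene model Gm11505, and reads of overlapping genes may not be told apart because strand was not stated for the counting.

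All 10 genes matched a promoter in RefSeq on GRCm38.p6, and the 250 bases before each RefSeq start, which for some genes differs from the GENCODE one, were searched on both strands for 4 short motifs chosen after the expression values were known. The C/EBP-like word TTGCNNAA was found in 6 of the 10 promoters, compared with 9.56% of 32851 promoters of the same length. The PU.1-like word GAGGAA was found in 6 of 10, compared with 23.3% of all promoters. An NF-kB-like word, GGGA followed after a gap of 4 bases by CC, was found in 0 of 10, compared with 17.6%, and TATAAA in 1, S100a8, compared with 12.4%. Matches of different motifs overlapped in 0 cases. A match describes letters and not a bound site. The C/EBP-like matches are printed because 4 of the 5 specific granule genes hold one, Camp being the exception. The PU.1-like word was in 3 of these 5, Lcn2, Ltf and Mmp8. Each is given 5′ to 3′ on the strand of its gene, with the match in capitals, the flanks in lower case, and the distance counted back from the start. A match on the other strand of the gene reads TTNNGCAA.
S100a9, chr3:90695939-90695968, minus strand, -236 to -229: ggtaggctgtcTTGCTTAAgatttgggcgg
Lcn2, chr2:32387937-32387966, minus strand, -216 to -209: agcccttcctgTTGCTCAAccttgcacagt
Ltf, chr9:111019206-111019235, plus strand, -75 to -68: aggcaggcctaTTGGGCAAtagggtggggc
Ngp, chr9:110419659-110419688, plus strand, -138 to -131: gtcctggtttaTTGCCCAAacctccttgcc
Ngp, chr9:110419786-110419815, plus strand, -11 to -4: accggcagttcTTGGGCAAggcagtctcaa
Mmp8, chr9:7558399-7558428, plus strand, -19 to -12: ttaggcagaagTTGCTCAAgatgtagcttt
Retnlg, chr16:48872358-48872380, plus strand, -246 to -239: agctTTCTGCAAggcattccagg
Ngp had 2 matches, and S100a8, Camp, Mpo and Elane had none in this window.

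The depth of the LPS libraries differed, from 7263258 recovered reads in the 2 h library through 15588502 in the untreated one to 32659392 in the 4 h one, so counts at 2 h are the least precise. The AAV values were read as TPM, which corrects for gene length and for the library total, and their depth is unknown. The targeted gene was checked first. Shisa3 had 1 read in the untreated library, 164 after 2 h and 3174 after 4 h of LPS. In the AAV experiment its level was 7.88 and 10.85 TPM in AAV-GFP cells, against 12.31 and 17.81 TPM in AAV-Shisa3 cells, a difference of 0.63 on the log2(TPM + 1) scale that did not pass the test (adjusted p = 0.138, limma with Benjamini-Hochberg adjustment). Each AAV-Shisa3 value exceeded each AAV-GFP value, and a read of the transgene cannot be told apart from one of the endogenous gene in this table. Il6 rose from 11 reads to 599 and 4043 in the LPS libraries, and with AAV-Shisa3 it differed by 0.53 and did not pass (adjusted p = 0.0568, limma).

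Without LPS the genes spanned a wide range of levels. In the 0 h library, on the scale of reads per kb of gene and per 1000000 reads of the library, S100a9 stood highest at 294, followed by S100a8 at 138, Mmp8 at 88.5, Ngp at 66.4, Ltf at 29.3, Camp at 27.1 and Lcn2 at 11.9. Retnlg at 4.76, Elane at 4.63 and Mpo at 3.88 were lowest. The counting intervals of Ltf and Camp overlapped, as did those of Retnlg, Elane and Mpo. With AAV-GFP the order in mean TPM was S100a9, S100a8, Lcn2, Ngp, Ltf, Mmp8, Camp, Elane, Mpo and Retnlg. The AAV-GFP samples held S100a8 at 165 TPM in each and Lcn2 at 156 and 164 TPM, so these neighbours lay close together, as did Mmp8 and Camp, and the values of Elane and Mpo overlapped. Lcn2 thus stood in place 7 of 10 in the untreated library and in place 3 of 10 with AAV-GFP, in separate experiments with different units. The ratio of Lcn2 to Ltf was 0.404 at 0 h and 11.0 at 4 h of LPS, in reads per kb. With AAV-GFP it was 8.73 and 8.77, in TPM. Tnf ranked 8020 by level at 0 h, and 769 and 689 with AAV-GFP. AAV-GFP cells therefore cannot be read as equal to the untreated cells, and the cause was not tested.

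**Figure D1:**
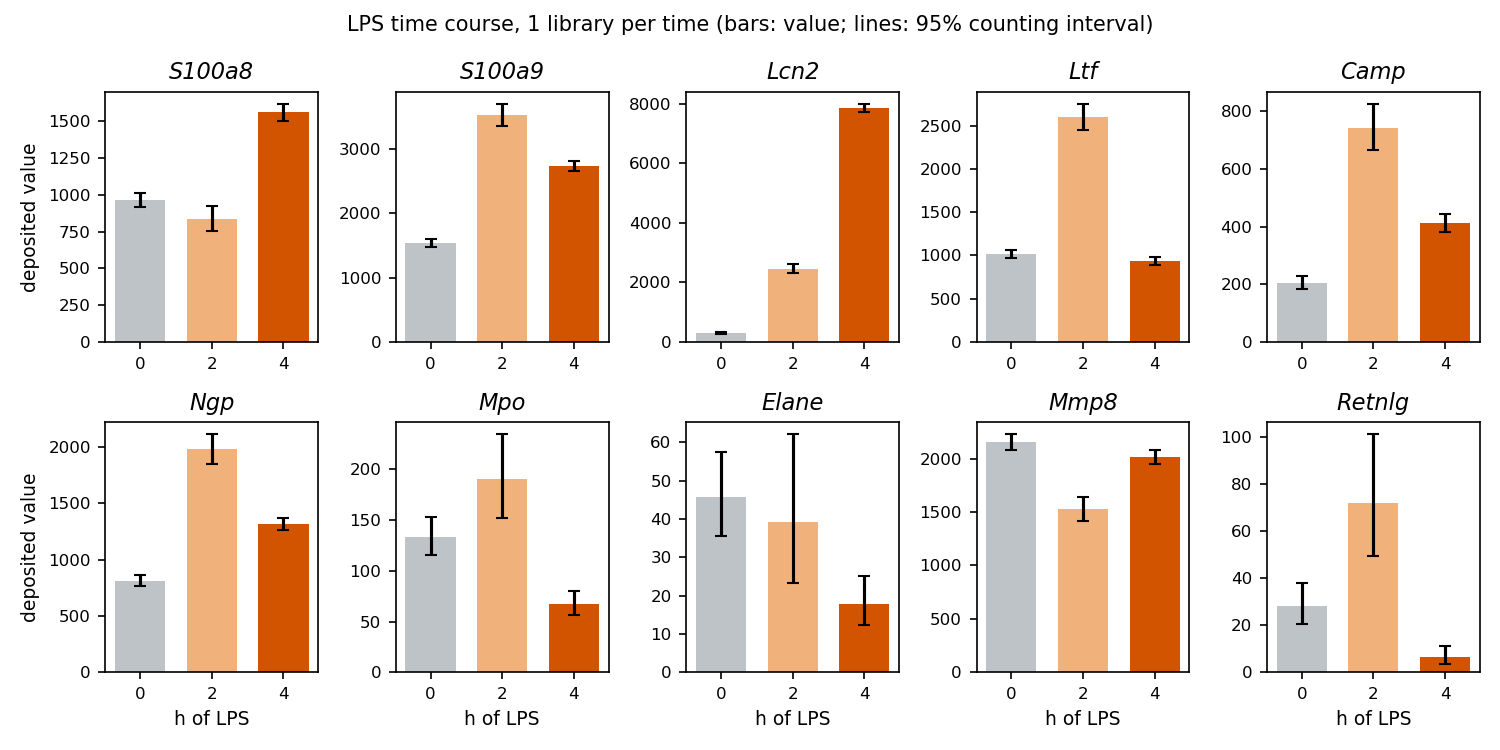
Deposited value (reads divided by 1 factor per library) of each gene at 0, 2 and 4 h of LPS, 1 library per time, each panel on its own linear axis from 0. Bars are values and lines are 95% Poisson intervals, which cover counting error only. Lcn2 climbs at both times, Ltf, Camp, Ngp and Retnlg are highest at 2 h, and Mpo, Elane and Retnlg are lowest at 4 h.

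In the LPS time course, Lcn2 rose steeply, S100a9 and the specific granule genes Ltf, Camp and Ngp were moderately higher at 2 h, and the azurophil granule genes and Retnlg were lower at 4 h. After 2 h of LPS, 6 of the set were at least 2-fold higher and 0 were at least 2-fold lower on log2(value + 1), against 20.5% and 24.7% of the 17854 genes compared. After 4 h, 1 was at least 2-fold higher and 2 were at least 2-fold lower, against 22.2% and 23.6% of all genes. The median log2 difference of the 10 genes was 1.24 at 2 h and 0.30 at 4 h, beside -0.05 and -0.04 over all genes compared. With 1 library per time there is no test, and the intervals given below for folds are exact 95% intervals for counting error only. Scaling the reads to equal library totals moved the median of all genes to -0.71 at 2 h and -0.83 at 4 h, so each fold that this scaling turns is given both ways. Under it 2 of the 10 genes were at least 2-fold higher and 1 lower at 2 h, against 2377 and 7290 of 17935 genes, and 1 was higher and 3 lower at 4 h, against 2304 and 7985. The median of the 10 genes under this scaling was 0.58 at 2 h and -0.52 at 4 h, so its direction at 4 h turned. Centring each library on its median moved the median of all genes to 0.26 and 0.33, with 5 of the 10 genes at least 2-fold higher and 1 lower at 4 h, against 5285 and 3036 of 17854 genes. With centring the median of the 10 genes was 1.55 at 2 h and 0.67 at 4 h.

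Lcn2, which binds bacterial siderophores and so withholds iron, was the member that moved most with LPS. Its deposited value climbed from 312 (485 reads, untreated) through 2457 (1125 reads, 2 h) to 7869 (14480 reads, 4 h). The fold over 0 h was 7.87 (7.07 to 8.78) at 2 h and 25.2 (23.0 to 27.7) at 4 h, and 4.98 and 14.3 with equal library totals. By log2 difference it ranked 715 of 17854 genes at 2 h and 262 at 4 h. Per length, Lcn2 went from place 7 of the 10 genes at 0 h to place 2 at 4 h, at 169 on the same length-corrected scale.

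The calprotectin genes did not follow each other in time. From 0 h through 2 h to 4 h, S100a8 had values of 963, 834 and 1561. S100a9 had values of 1538, 3522 and 2728. The fold of S100a8 was 0.866 (0.772 to 0.970) at 2 h and 1.62 (1.52 to 1.73) at 4 h, whereas that of S100a9 was 2.29 (2.15 to 2.44) at 2 h and 1.77 (1.69 to 1.86) at 4 h. With equal library totals the 4 h folds became 0.916 for S100a8 and 1.00 for S100a9, so neither was higher at 4 h on that scaling, whereas with TMM factors the log2 differences were 0.65 and 0.78 and with centring 1.07 and 1.20. Centring on the median turned S100a8 at 2 h from -0.21 to 0.11 on the log2(value + 1) scale. The ratio of S100a9 to S100a8 does not depend on scaling. In reads per kb it was 2.12 (1.99 to 2.27) at 0 h, 5.61 (5.02 to 6.29) at 2 h and 2.32 (2.22 to 2.43) at 4 h, so the 2 h library stood apart from the others beyond counting error.

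Among the other specific granule genes, Ltf, Camp and Ngp peaked at 2 h and Mmp8 did not. Ltf, the iron-binding lactoferrin, had values of 1015, 2599 and 937 over the same times. Camp, the precursor of the cathelicidin peptide, had 206, 742 and 412. Ngp, a cystatin-like granule protein, had 814, 1981 and 1315. At 2 h the folds were 2.56 (2.37 to 2.76) for Ltf, 3.61 (3.09 to 4.21) for Camp and 2.43 (2.23 to 2.65) for Ngp. At 4 h they were 0.923 (0.862 to 0.989), 2.00 (1.75 to 2.29) and 1.62 (1.51 to 1.73). Camp lay just under the 2-fold mark at 4 h, with a difference of 0.997 on log2(value + 1). With equal library totals these 2 h folds stayed above 1 at 1.62, 2.28 and 1.54, the 4 h fold of Ngp turned to 0.913, and that of Camp fell to 1.13 (0.991 to 1.29), an interval that spans 1. Mmp8, the neutrophil collagenase, had 2153, 1524 and 2016, with a fold of 0.708 (0.652 to 0.768) at 2 h and 0.936 (0.893 to 0.981) at 4 h. Centring on the median turned the 4 h differences of Ltf and Mmp8 to 0.26 and 0.28 on the log2(value + 1) scale.

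The azurophil granule genes and Retnlg were the lowest of the set and were lower at 4 h than at 0 h. Mpo, which makes hypochlorous acid, had values of 133, 190 and 67.4 from 0 h to 4 h. Elane, a serine protease, had 45.7, 39.3 and 17.9, from 71, 18 and 33 reads. Retnlg had 28.3, 72.1 and 6.52, from 44, 33 and 12 reads. The fold at 4 h was 0.506 (0.402 to 0.635) for Mpo, 0.393 (0.252 to 0.601) for Elane and 0.230 (0.111 to 0.444) for Retnlg, and all 3 stayed below 1 with equal library totals and with centring on the median. At 2 h the fold of Mpo was 1.43 (1.10 to 1.84), or 0.902 with equal library totals, and that of Retnlg was 2.55 (1.57 to 4.09), or 1.61 (0.993 to 2.59) with equal library totals. The 2 h interval of Elane, 0.483 to 1.46, spans 1 on the deposited scaling, and with equal library totals the fold was 0.544 (0.305 to 0.923).

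The summed reads of the 10 genes took 0.0719% of the library at 0 h, 0.0880% at 2 h and 0.0954% at 4 h. Lcn2 held 485 of the 11205 summed reads at 0 h, 1125 of 6393 at 2 h and 14480 of 31154 at 4 h. The sum therefore does not stand for the other genes. Within that sum the ratio of Lcn2 to Ltf, in reads per kb, moved from 0.404 (0.364 to 0.448) at 0 h to 1.24 (1.15 to 1.35) at 2 h and 11.0 (10.5 to 11.6) at 4 h. The ratio of Camp to Ngp moved less, from 0.408 to 0.604 and 0.505. The balance between the genes thus changed within the specific granule group.

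**Figure D2:**
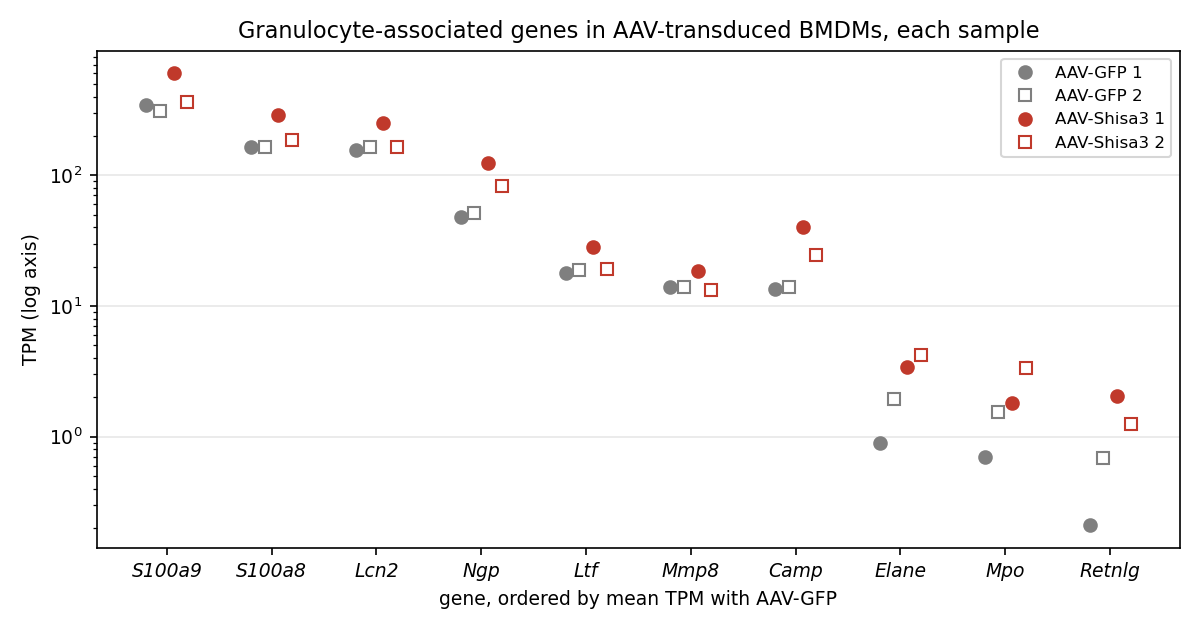
TPM of each gene in each of the 4 AAV samples on a log axis, with genes ordered by their mean with AAV-GFP. Grey marks are AAV-GFP, red marks are AAV-Shisa3, and filled or open marks are replicate 1 or 2. Both red marks lie above both grey marks for every gene but Mmp8, and the replicate 1 mark is the higher red mark for 8 of 10 genes. The open red mark of Lcn2 (164.3 TPM) is only just above the open grey one (163.8 TPM).

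With AAV-Shisa3 the levels of 9 of the 10 genes were above those with AAV-GFP in both samples, and the genes with the clearest separation were Camp and Ngp. No gene was below in both samples. Over all 11218 genes tested, 18.2% had both AAV-Shisa3 samples above both AAV-GFP samples and 41.2% had both below. Camp and Ngp passed the threshold of 0.05 on the adjusted p of limma, so 2 of 10 were called higher and 0 lower, against 2.23% and 4.1% of all genes. These samples were among those the genes were chosen by, so the counts support nothing beyond the values. The median difference of the 10 genes was 0.63 on the log2(TPM + 1) scale, compared with -0.10 over all genes tested. Centring the samples on their medians gave 0.01 for all genes and 0.74 for the 10 genes, and turned the calls over all genes from 250 higher and 460 lower to 410 higher and 230 lower. Both calls were lost when limma was run without the trend or without a filter on low values, and when either AAV-GFP sample or replicate 1 of AAV-Shisa3 was left out, each of which gave 0 of 10 called. Taken gene by gene, an exact permutation test of 2 against 2 samples cannot go below p = 0.333. In bulk RNA, more cells of a type and more RNA per cell cannot be told apart.

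Camp was 13.6 and 13.9 TPM in AAV-GFP cells, against 40.2 and 24.7 TPM in AAV-Shisa3 cells. Ngp was 47.9 and 51.6 TPM in AAV-GFP cells, against 124 and 83.2 TPM in AAV-Shisa3 cells. For both genes the AAV-GFP samples lay close together and both AAV-Shisa3 samples were well above them, with replicate 1 the higher. The differences were 1.14 ± 0.22 (SE, n = 2 and 2) for Camp and 1.02 ± 0.18 for Ngp on the log2(TPM + 1) scale. The other specific granule genes moved less. Lcn2 was 156 and 164 TPM in AAV-GFP cells, against 250 and 164 TPM in AAV-Shisa3 cells, a difference of 0.34 ± 0.19. Ltf was 17.9 and 18.7 TPM in AAV-GFP cells, against 28.5 and 19.2 TPM in AAV-Shisa3 cells, a difference of 0.34 ± 0.18. Replicate 1 of AAV-Shisa3 carried most of both differences, since replicate 2 was 1.03 and 1.05 times the AAV-GFP mean for Lcn2 and Ltf. Mmp8 was 14.1 and 14.0 TPM in AAV-GFP cells, against 18.4 and 13.3 TPM in AAV-Shisa3 cells, and it was the member whose groups overlapped.

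Calprotectin held the highest levels of the set. S100a9 was 347 and 312 TPM in AAV-GFP cells, against 602 and 361 TPM in AAV-Shisa3 cells, a difference of 0.50 ± 0.23 on the log2(TPM + 1) scale. S100a8 was 165 TPM in each AAV-GFP sample, against 290 and 185 TPM in AAV-Shisa3 cells, a difference of 0.49 ± 0.20. As with Lcn2, replicate 1 of AAV-Shisa3 was far above the other samples and replicate 2 only slightly above AAV-GFP. The ratio of S100a9 to S100a8 in TPM ranged from 1.89 to 2.10 over the 4 samples.

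The azurophil granule genes and Retnlg were near the lower end of what was tested. Elane was 0.89 and 1.95 TPM in AAV-GFP cells, against 3.42 and 4.25 TPM in AAV-Shisa3 cells, a difference of 1.03 ± 0.26 on the log2(TPM + 1) scale. Mpo was 0.70 and 1.55 TPM in AAV-GFP cells, against 1.82 and 3.34 TPM in AAV-Shisa3 cells, a difference of 0.75 ± 0.31. Retnlg was 0.21 and 0.69 TPM in AAV-GFP cells, against 2.03 and 1.24 TPM in AAV-Shisa3 cells, a difference of 0.87 ± 0.28. All 3 were above AAV-GFP in both samples without passing the test. Retnlg entered the test through its AAV-Shisa3 values, since its AAV-GFP mean of 0.45 TPM lay under the minimum of 1, and 7 of the 10 genes had at least 1 TPM in every sample.

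**Figure D3:**
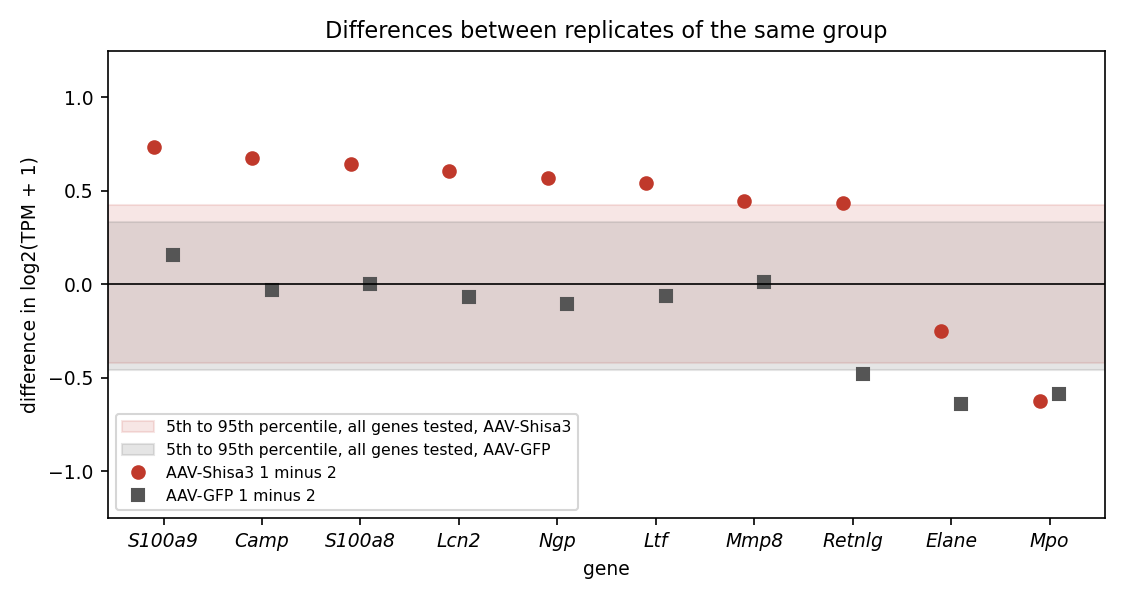
Difference between replicates 1 and 2 of the same group on the log2(TPM + 1) scale, for AAV-Shisa3 (red circles) and AAV-GFP (grey squares). Bands span the 5th to 95th percentile of the same difference over the 11218 genes tested. With AAV-Shisa3, 8 of 10 genes lie above the band, Mpo lies below it, and Elane lies below 0 within it.

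The AAV-Shisa3 samples differed from each other in these genes. Replicate 1 was above replicate 2 by a median of 0.55 on the log2(TPM + 1) scale over the 10 genes, compared with -0.004 over all genes tested. In 8 genes this difference was above the 95th percentile of all genes, 0.42, and in Mpo and Elane replicate 2 was the higher. Mpo (-0.62) lay below the 5th percentile, -0.42, and Elane (-0.25) lay within the band. Between the AAV-GFP samples the median was -0.07, and 0 genes were above the 95th percentile there. Mpo (-0.58), Elane (-0.64) and Retnlg (-0.48) lay below the 5th percentile of all genes, -0.46, so the AAV-GFP samples also differed in the lowest genes of the set. The summed level of the 10 genes was 763 and 743 TPM in AAV-GFP cells, against 1360 and 860 TPM in AAV-Shisa3 cells. Without replicate 1 of AAV-Shisa3 the median difference of the 10 genes fell from 0.63 to 0.41, and without replicate 2 it was 0.84. Without replicate 1 the 10 genes fell apart. Camp (0.81), Ngp (0.73), Mpo (1.06), Elane (1.15) and Retnlg (0.65) kept a difference above 0.6 on the log2(TPM + 1) scale, whereas S100a8 (0.16), S100a9 (0.14), Lcn2 (0.04) and Ltf (0.07) came close to 0 and Mmp8 turned to -0.076.

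Ratios between genes showed the same contrast without any scaling between samples. Lcn2 to Ltf, in TPM, was 8.73 and 8.77 with AAV-GFP and 8.80 and 8.55 with AAV-Shisa3. Ltf to Ngp was 0.373 and 0.362 with AAV-GFP and 0.230 and 0.231 with AAV-Shisa3. Lcn2 and Ltf kept their ratio in all 4 samples, while Ngp was higher relative to Ltf in both AAV-Shisa3 samples. The ratio of Camp to Ngp was 0.284 and 0.269 with AAV-GFP and 0.325 and 0.297 with AAV-Shisa3.

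**Figure D4:**
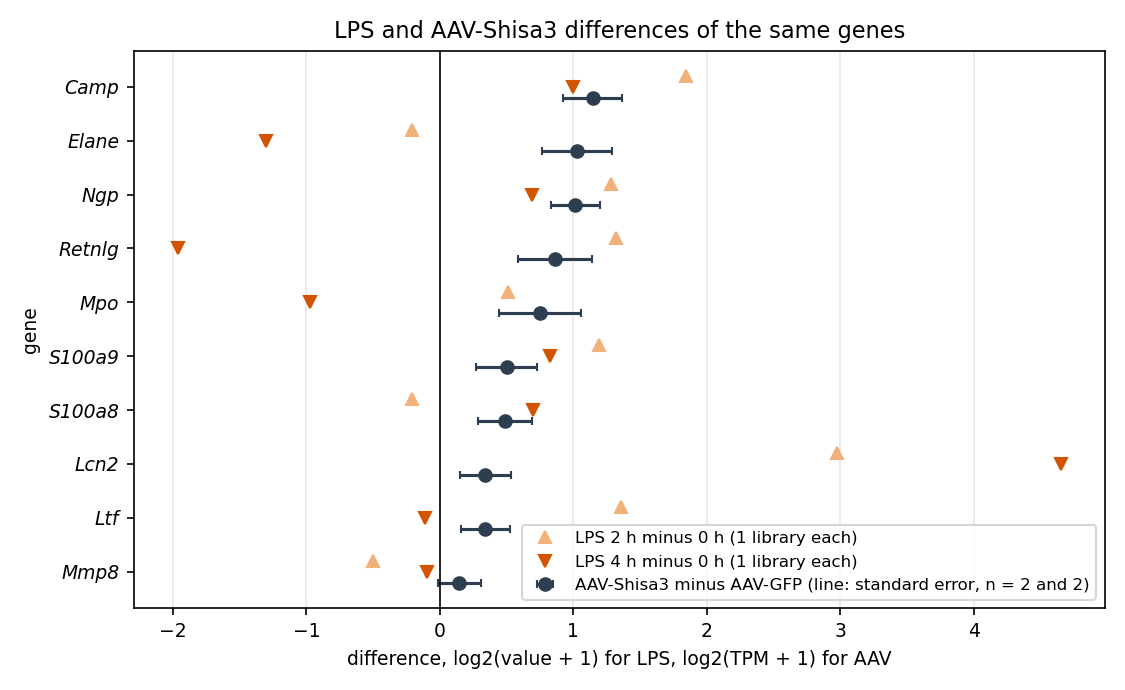
Difference of each gene at 2 h and 4 h of LPS (triangles, log2(value + 1), 1 library per time) and with AAV-Shisa3 (circles, log2(TPM + 1), lines are standard errors, 2 against 2 samples), ordered by the AAV difference. Lcn2 moves most with LPS and little with AAV-Shisa3, and Elane, Mpo and Retnlg are to the left of 0 at 4 h of LPS and to the right of 0 with AAV-Shisa3.

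The LPS and AAV-Shisa3 differences of the same genes were set side by side, since Shisa3 itself rose with LPS. The experiments share no samples and differ in unit, time and scaling, so sizes are not directly comparable. All 10 AAV-Shisa3 differences were above 0, and 7 of the 10 genes were above 0 at 2 h of LPS and 5 at 4 h, so the number above 0 in both is fixed by LPS alone. With equal library totals 6 and 3 of the genes were above 0 at these LPS times, and with centring 9 and 7. Over the 10 genes Pearson's r between the log2 differences was 0.09 at 2 h and -0.34 at 4 h, and Spearman's rho was 0.13 and -0.13. Without Lcn2 these were 0.43 and -0.12, and 0.37 and 0.02. They are given as a description over genes that share libraries, with no p.

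The order of the genes differed between the experiments. Lcn2 had the largest LPS difference, 2.97 at 2 h and 4.65 at 4 h on log2(value + 1), and one of the smallest with AAV-Shisa3, 0.34 on log2(TPM + 1). Its ratio to Ltf was already 8.73 and 8.77 in TPM with AAV-GFP, beside 0.404 in reads per kb at 0 h of LPS. Camp and Ngp were above 0 in every comparison, at 1.85 and 1.28 at 2 h, 1.00 and 0.69 at 4 h, and 1.14 and 1.02 with AAV-Shisa3, although Ngp at 4 h turned to -0.13 with equal library totals. Elane was -1.30 and Retnlg -1.96 at 4 h of LPS, and 1.03 and 0.87 with AAV-Shisa3. Mpo showed the same opposition, at -0.97 and 0.75. Mmp8 was below 0 at both LPS times, although it turned to 0.28 at 4 h with centring, and had the smallest AAV-Shisa3 difference. A 2 h or 4 h LPS stimulus and a 48 h transduction were not sampled at matched times, so the difference between these profiles was not tested.

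A wider list of 33 other granulocyte genes was examined in both experiments. In the AAV test 23 of them could be tested, of which 1 was called higher and 1 lower, with a median of 0.34 on the log2(TPM + 1) scale beside -0.10 over all genes. In 12 of them the AAV-Shisa3 values were both higher than the AAV-GFP values, and in 4 both were lower. Over all genes tested the shares were 2.23% called higher and 4.1% called lower, with 18.2% above and 41.2% below in both samples. The 12 include Ctsg (0.24 and 0.74 TPM with AAV-GFP) and Gfi1 (0.53 and 1.00 TPM), which reached the mean of 1 TPM through their AAV-Shisa3 values. The 4 include Stfa3, which reached it through AAV-GFP (1.33 and 1.93 TPM, against 0.91 and 0.44 TPM). Cebpb, a C/EBP factor of stress-induced granulocyte production, was 298 and 323 TPM with AAV-GFP and rose to 405 and 461 TPM (0.48 ± 0.09, adjusted p = 0.0422, limma). Siglece, an inhibitory sialic acid receptor, was 345 and 363 TPM with AAV-GFP and fell to 280 TPM in each AAV-Shisa3 sample (-0.34 ± 0.07, adjusted p = 0.0485, limma). The formyl peptide receptor Fpr1, the most abundant gene of the list, was 768 and 769 TPM in AAV-GFP cells, against 1022 and 929 TPM in AAV-Shisa3 cells, and did not pass (0.34 ± 0.08, adjusted p = 0.0570, limma). Its relative Fpr2 differed by -0.15 ± 0.09 and the G-CSF receptor Csf3r by 0.04 ± 0.11, neither of which passed. The calls of Cebpb and Siglece were lost when any 1 sample was left out, without the trend and without the filter on low values, and that of Siglece also after centring on the median. Other settings called more of the list, with 5 higher after centring, and 5 higher and 2 lower among genes with at least 1 TPM in every sample.

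In the LPS libraries 28 of the 33 genes could be compared. At 2 h 16 were at least 2-fold higher and 3 at least 2-fold lower, with a median of 1.72 on log2(value + 1), against 20.5% and 24.7% of all genes. At 4 h 17 were higher and 2 lower, with a median of 1.62, against 22.2% and 23.6% of all genes, and the median of the 10 genes was 0.30. Fpr1 was higher by 6.73 and Fpr2 by 7.14 at 4 h, Csf3r by 2.83 and Cebpb by 3.28. Of the other C/EBP factors listed, Cebpd differed by 3.44 at 4 h, Cebpa by -3.99 and Cebpe by -0.75. The 3 genes called lower at 2 h were Cebpa (-2.50), Cebpe (-1.28) and Cxcr2 (-1.12). Siglece, which fell with AAV-Shisa3, was higher by 2.93 at 4 h of LPS. With equal library totals 14 were higher and 9 lower at 4 h, against 2304 and 7985 of 17935 genes. The 4 h medians were then 1.14 for the list and -0.52 for the 10 genes, beside -0.83 over all genes.

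Markers of other cell types were read beside these values. The labelled cell type was checked first. The 14 macrophage genes summed to between 41747 and 46184 TPM in the AAV samples, led by Lyz2, and to 37248, 27606 and 21945 per 1000000 reads at 0, 2 and 4 h of LPS. Lyz2 alone made up most of each sum, at between 26378 and 29528 TPM in the AAV samples. In the LPS libraries Lyz2 was at 24182, 14140 and 11786 per 1000000 reads, so these sums mainly follow 1 gene. On the deposited scale the LPS sums were 373506, 437843 and 389470, so their direction turns with the scaling. With AAV transduction 1 of 14 was called higher with AAV-Shisa3 (Cd14) and 0 lower, against 2.23% and 4.1% of all genes. Among defining genes of mature neutrophils, Ly6g was 0.11 and 0.11 TPM in AAV-GFP cells, against 0.29 and 0.10 TPM in AAV-Shisa3 cells, and Cxcr2 was 0.21 and 0.24 TPM with AAV-GFP and 0.14 TPM in each AAV-Shisa3 sample, both under the minimum for testing. In the LPS libraries Ly6g had 4, 1 and 2 reads and Cxcr2 had 24, 3 and 14. Mrgpra2b, another gene of this list, was 0.24 and 0.19 TPM in AAV-GFP cells, against 2.38 and 0.98 TPM in AAV-Shisa3 cells. Its reads in the LPS libraries were 1, 6 and 20 at 0, 2 and 4 h. The list of 5 genes, which includes Retnlg and is dominated by Csf3r, summed to 89.8 and 108 TPM in AAV-GFP cells, against 101 and 106 TPM in AAV-Shisa3 cells, with 0 of 5 listed at 0 in every sample. In the LPS libraries the list summed to 132, 279 and 512 per 1000000 reads at 0, 2 and 4 h. Csf3r made up nearly all of these sums, at 127, 273 and 511.

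Monocyte markers were also higher in sum in both AAV-Shisa3 samples. The 5 genes summed to 67.6 and 72.0 TPM in AAV-GFP cells, against 119 and 92.0 TPM in AAV-Shisa3 cells, and 2 of 5, Ccr2 and F13a1, were called higher, against 2.23% of all genes. Like that of Cd14, both calls were lost without the trend, without the filter on low values and when any 1 sample was left out. The 6 proliferation genes summed to 317 and 281 TPM in AAV-GFP cells, against 408 and 342 TPM in AAV-Shisa3 cells, with 0 called. Pcna made up most of that sum, at 273 and 237 TPM in AAV-GFP cells, against 331 and 299 TPM in AAV-Shisa3 cells. Birc5 (4.98 and 4.67, against 14.8 and 8.23 TPM) was also higher in each replicate with AAV-Shisa3. Top2a (6.3 and 6.32, against 9.76 and 6.37 TPM) was too, but only just in replicate 2. Ccnb1 (5.20 and 5.46, against 12.3 and 4.96 TPM) was below AAV-GFP in AAV-Shisa3 replicate 2. So was Cdk1 (25.1 and 24.1, against 36.3 and 20.8 TPM). For Mki67 (2.45 and 3.05, against 3.7 and 2.58 TPM) the groups overlapped. In both lists replicate 1 of AAV-Shisa3 was the highest sample, as it was for the summed level of the 10 genes. The 6 myeloid progenitor genes summed to 1.52 and 2.92 TPM in AAV-GFP cells, against 3.47 and 3.16 TPM in AAV-Shisa3 cells. In the LPS libraries the monocyte sum was 990, 431 and 297 per 1000000 reads at 0, 2 and 4 h. The part of these cell types in the levels of the 10 genes was not tested.

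Most other lineages were low in the AAV samples, apart from the megakaryocyte list. The eosinophil, basophil and mast cell list summed to between 1.51 and 4.25 TPM, the T cell list to between 6.01 and 11.3 TPM with Cd3e, Cd3g and Trac listed at 0 in all samples, the B cell list to between 8.09 and 14.6 TPM and the fibroblast list to between 9.42 and 16.4 TPM. The megakaryocyte list summed to 693 and 819 TPM in AAV-GFP cells, against 881 and 1132 TPM in AAV-Shisa3 cells. Nearly all of that sum was Pf4, at 678 and 803 TPM in AAV-GFP cells, against 863 and 1111 TPM in AAV-Shisa3 cells. Ppbp (11.95 and 12.86, against 16.87 and 19.24 TPM) was also higher in both AAV-Shisa3 samples. Itga2b (2.47 and 1.88, against 0.62 and 1.01 TPM) and Gp9 (0.58 and 0.75, against 0.32 and 0.22 TPM) were lower in both, and the groups overlapped for Gp1bb. None of the genes of these lists that could be tested was called in either direction.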

How the data were processed

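RNA was sequenced as 150 bp paired-end reads from 7 samples, 3 LPS libraries and 4 AAV samples. For LPS the values the authors deposited are a signal, each gene's read count over a factor of its library. Values were whole multiples of 1 step for 100% of values (tolerance 1%), from which reads were recovered. For AAV the authors deposited values that sum to nearly the same total in each sample (999778 to 999818), read as TPM from the values. The submitters' notes name build mm9, and the aligner, counter and annotation are not given in the sources used here. GENCODE positions matched 99.2% of LPS identifiers. The labels give 4 µg of RNA input for all samples.

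The members and all lists were chosen with earlier results of these data known. AAV genes with a mean TPM of 1 or more were tested with limma (trended) on log2(TPM + 1) with Benjamini-Hochberg adjustment over all 11218 genes and a threshold of 0.05. TPM depth is unknown, so no counting interval was given. LPS genes with a mean of at least 1 were compared on log2(value + 1), and at least 2-fold was called. Poisson and conditional binomial intervals (95%, exact) cover counting error only. The genes named were all members, the other granulocyte genes that passed or were the 5 most abundant, leading markers and markers at 0 of each list, and Shisa3, Il6 and Tnf. Mrgpra2b was added after its values were seen. 1 marker list is not reported here. Tnf differed by 0.73 with AAV-Shisa3 (adjusted p = 0.0179, limma). Alternatives were the fit without trend, median centring, other filters and pseudocounts, a replicate block, library totals, TMM and leaving out each sample. Figures were drawn with matplotlib 3.10.9, intervals computed with scipy 1.17.1, and tables handled in pandas 2.3.3 and numpy 2.4.6 under Python 3.11.15. limma 3.58.1 and edgeR 4.0.16 (TMM factors) ran in R 4.3.3.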

Additional observations from a re-analysis of the deposited data

Results flagged for a closer look

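On the deposited scaling, in 4 genes the LPS libraries moved one way at 2 h and the other way at 4 h, relative to 0 h. S100a8 was 0.866-fold at 2 h and 1.62-fold at 4 h, Ltf was 2.56-fold and 0.923-fold, Mpo was 1.43-fold and 0.506-fold, and Retnlg was 2.55-fold and 0.230-fold. Retnlg did so under each of the 4 scalings run. With equal library totals the log2 differences of S100a8 (-0.87 and -0.13) and Mpo (-0.15 and -1.79) were below 0 at both times, and with centring those of S100a8 (0.11 and 1.07) and Ltf (1.67 and 0.26) were above 0 at both. With 1 library per time, the difference between 2 h and 4 h was not tested.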

How the results depend on the processing

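With AAV-Shisa3, members called higher went from 2 to 0 when the trend was dropped, to 0 when low values were not filtered, and ranged from 0 to 2 when 1 sample was left out. Unadjusted p under 0.05 was met over all genes by 811 higher and 2148 lower without the trend, and by 1118 and 2411 with no filter (limma). Over all genes, 250 higher and 460 lower became 1 and 4 without the trend, 410 and 230 after centring, 0 and 0 with no filter, and 0 to 27 and 0 to 7 when 1 sample was left out. Other granulocyte genes called higher, 1, became 0 without the trend, 5 centred, 0 with no filter, 5 at 1 TPM in every sample, 2 at a pseudocount of 0.1 and 0 with any sample left out. Those called lower, 1, became 0, 0, 0, 2, 1 and 0. With 1 sample left out, the difference of Mmp8 ranged from -0.076 (without AAV-Shisa3 replicate 1) to 0.37. The labels do not say whether equal replicate numbers mark a pair (correlation of deviations 0.188). With the replicate block, 3 members were called higher (Elane as well), other granulocyte genes became 6 higher and 2 lower, and all genes 424 and 851. In the LPS libraries, members higher at 2 h went from 6 to 2 and lower from 0 to 1 with library totals. At 4 h, higher went from 1 to 5 centred and 2 at a pseudocount of 0.1, and lower from 2 to 1 centred, 3 with library totals and 3 with TMM. Over all genes at 4 h, 5285 were higher and 3036 lower of 17854 centred, 4236 and 4511 at a pseudocount of 0.1, and 3836 and 4350 of 17887 with TMM, and with library totals 2304 and 7985 of 17935 (2377 and 7290 at 2 h). The cause of these changes was not tested. Of the single-member AAV alternatives, 1 reversed its side, that of Mmp8 without AAV-Shisa3 replicate 1, and the others kept their side. A kept side says nothing of size, since without AAV-Shisa3 replicate 1 the difference of Lcn2 went from 0.34 to 0.04. Of the single-member LPS alternatives, 88 stayed within counting error and 32 moved.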
